A study of Caenorhabditis elegans with 12 samples.

Results

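Trimethylation of histone H3 at lysine K4 (H3K4me3) was mapped in *Caenorhabditis elegans* larvae (wild-type strain N2, L3 stage) by chromatin immunoprecipitation sequencing (ChIP-seq). The sites described here are the H3K4me3 peaks on chromosome III. They were taken as every peak of the deposited H3K4me3 list that lies on III, which gave 286 of 1562 peaks. No measured value entered that choice. The same series mapped ELT-2, and the ELT-2 list held 44 peaks on III of 624 in all.

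H3K4me3 is laid down by a methyltransferase complex of the Set1 and COMPASS type, known in worms for its SET-2 subunit, and it gathers on the nucleosomes around the start sites of transcribed genes. Worm autosomes have a gene-dense centre between more repeat-rich arms. ELT-2, a GATA factor, is the main transcription factor of the differentiated intestine and binds promoters and other regulatory sites of intestinal genes. The chromatin came from whole larvae, so the lists hold no information on the tissue in which a peak arose.

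The series has 12 libraries in 5 groups: 2 from H3K4me3 ChIP, 3 from ELT-2 ChIP, 2 from a mock ChIP with IgG, 3 of input DNA and 2 of RNA. Every group came from N2 worms without a transgene or treatment named in the labels, kept at 25 °C in liquid medium with *Escherichia coli* HB101 as food and harvested between 24 and 26 h after feeding. Each antibody gave 1 deposited peak list, so the lists give no value per library and no spread between replicates. Read depth is unknown from the lists. Intervals are at 95%, count each peak as independent and cover nothing beyond counting error, and no difference between chromosomes was tested. Positions refer to ce10, counting from 1. No gene annotation or genome sequence of ce10 was used here, and each site is therefore given by its position, with no gene and no sequence. The names of the deposited lists read as if peaks shared with IgG, blacklisted regions and HOT regions (places where many factors give signal at once) had been taken out, and as if peaks with scores up to 30 had been dropped. A stretch without a listed peak is therefore not shown to lack the mark.

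The 286 peaks became denser from left to right along III. The span of the chromosome, taken from the first to the last peak of either antibody, was 13.8 Mb. When it was divided into 3 equal parts, the left part held 63 peaks, the middle part 85 and the right part 138. The right part of III thus held 48.3% of its peaks (Wilson interval 42.5 to 54.0), against 23.3% (21.0 to 25.7) in the right part of the other 4 autosomes together. In peaks per Mb, the 3 parts of III had 13.7 (exact Poisson interval 10.6 to 17.6), 18.5 (14.8 to 22.9) and 30.1 (25.3 to 35.6). The intervals of the left and the right part did not overlap. The fullest part was the middle one on I (139 of 366 peaks) and on V (128 of 247), and the left one on II (104 of 239) and on IV (256 of 410). The median summit of III lay 64.7% of the way along its span, against 55.4% on I, 41.5% on II, 21.7% on IV and 47.5% on V.

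The gradient was not confined to the last Mb. In 10 equal parts of III, counted from the left, the peaks numbered 12, 18, 27, 22, 21, 27, 32, 38, 40 and 49. The count was lower than in the part before it at the 4th and the 5th of the 10 parts. In windows of 1 Mb the median count was 18.5 peaks. By count, the fullest window ran from 12 to 13 Mb with 35 peaks, followed by 10 to 11 Mb with 31. The window from 11 to 12 Mb held 28. The last window, from 13 to 14 Mb, held 27 although the span ends at 13769722, so its count understates its density. The emptiest was the first Mb with 10 peaks, followed by 2 to 3 Mb and 6 to 7 Mb with 11 each. The fullest window of III held 12.2% of its peaks, against 9.56% on I, 12.6% on II, 14.6% on IV and 10.1% on V.

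**Figure D1:**
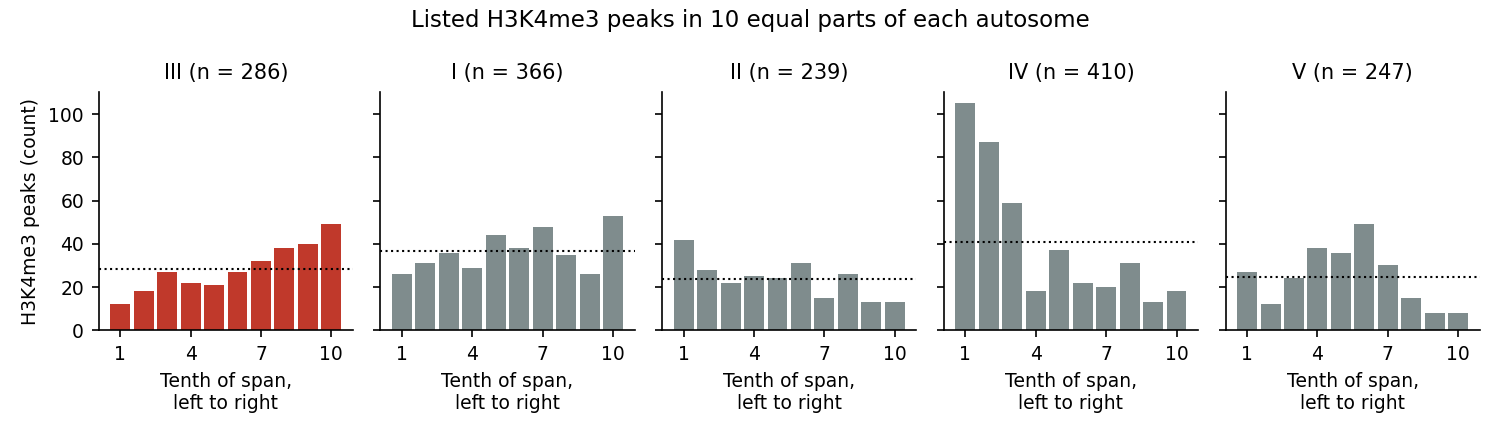
Bars give the number of listed H3K4me3 peaks (vertical axis) in each of 10 equal parts of the span (horizontal axis, left to right), for III and then I, II, IV and V. The dotted line is the mean per part of that chromosome. On III the first 6 bars lie below the line and the last 4 above it, with 12 peaks in the first bar and 49 in the last.

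Over the whole span, III had 20.8 peaks per Mb (exact Poisson interval 18.5 to 23.3), against 18.5 (17.5 to 19.6) on the other autosomes together, a ratio of 1.12. The other autosomes were not alike: I had 24.3, IV 23.7, II 15.7 and V 11.95 peaks per Mb. III lay in the middle of this order. Without V among the other autosomes the ratio was 0.974, so the direction of the comparison depended on V. The outer parts together held 201 of the 286 peaks on III (70.3%, Wilson interval 64.7 to 75.3), against 65.8% (63.2 to 68.4) on the other autosomes, and an even spread would give 66.7%. The 286 peaks covered 186.0 kb, or 1.35% of the span, against 1.29% on the other autosomes.

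Between its listed peaks, III had long stretches without one. The longest was chrIII:235925-639886, 404.0 kb near the left end, and it held no ELT-2 peak either. The next were chrIII:9126470-9393553 at 267.1 kb, chrIII:6608169-6869044 at 260.9 kb, chrIII:2815065-3068169 at 253.1 kb and chrIII:2529331-2768328 at 239.0 kb. Of these 5 stretches the second, on the border between the middle and the right part, held 1 ELT-2 peak and the others none. The running numbers in the peak names, described below, skipped 42 numbers across the second stretch and 5 to 11 across each of the others. If those numbers count a longer list, peaks were removed inside every one of these stretches, and most in the second. The longest stretch was shorter than the longest on II (414856 bp), IV (489960 bp) and V (904527 bp) and longer than that on I (249702 bp). Peaks that stood farthest from any other were chrIII:6607500-6608168, 153.6 kb from its neighbour, with a score of 94.14, and chrIII:639887-640340, at 142.7 kb, with a score of 145.66. Next came chrIII:2172329-2173271 at 141.1 kb, chrIII:3068170-3069234 at 106.1 kb and chrIII:86782-87381 at 101.3 kb. Of these 5 isolated peaks, 1 lay in the middle part and the others in the left part. An isolated peak was not always a weak one, and the peak at 3068170 scored 290.21 and ranked 14 of 286 on III.

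Neighbouring peaks on III were grouped about as often as elsewhere. Another H3K4me3 peak lay within 5000 bp of 105 of the 286 peaks (36.7%, Wilson interval 31.3 to 42.4), against 39.5% (36.9 to 42.3) on the other autosomes and 38.7% in the whole list. The ratio of these shares was 0.928. It was 1.02 without IV, where 47.1% of peaks were grouped, so its direction depended on IV. When peaks linked by gaps of up to 5000 bp were counted as 1 site, III had 228 sites: 181 single peaks, 36 pairs and 11 triples. No site on III held 4 or more peaks, as on II, while I had 2 such sites, IV 5 and V 2. Grouped peaks were most frequent at the right. In the right part 66 of 138 peaks had a neighbour within 5000 bp (47.8%, Wilson interval 39.7 to 56.1), against 23 of 85 in the middle part (27.1%, 18.8 to 37.3) and 16 of 63 in the left part (25.4%, 16.3 to 37.3). The right part is also the densest, and how far density alone accounts for its grouping was not tested.

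The 11 triples are named here although the naming rule asked for sites of 4 or more, so they were chosen after their values were seen. Of the 11, 1 lay in the middle part and 10 in the right part. The longest triple was chrIII:10807861-10818571, 10.7 kb, with peaks 1480, 2006 and 325 bp wide and scores of 63.91, 87.13 and 35.11. The triple at the right end, chrIII:13759522-13769722, spanned 10.2 kb with peaks 1813, 1691 and 779 bp wide, all with scores of 55.97 or less. At chrIII:10739486-10748986, 9.50 kb long, 3 peaks scored 110.24, 390.9 and 267.65, so every member stood above the list median of 57.0. At chrIII:11915241-11921398 the 3 scores were 107.11, 234.28 and 245.86. These sites differ in kind: some join 3 strong peaks, and others, such as chrIII:12189615-12196348 with scores of 35.77, 37.03 and 50.83, join 3 weak ones. No ELT-2 peak overlapped the extent of any of the 11.

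Many neighbours were nearly adjacent. On III, 32 gaps between consecutive peaks were 500 bp or shorter, and 62 peaks bordered such a gap (21.7%, Wilson interval 17.3 to 26.8), against 21.0% on the other autosomes and 20.9% in the whole list. The gap in these close pairs had a median of 206 bp (range 66 to 464), against 191 bp over 137 close pairs elsewhere. Their summits lay a median of 671.5 bp apart on III and 711 bp apart elsewhere. In all 32 pairs the peak names carried consecutive running numbers, so no removed peak can have lain between the members if the numbers count a longer list. Members of a pair often differed in score. The scores of the members differed by a median of 76.34 on III, against 38.6 on the other autosomes, and on I by 82.8. The wider member had the higher score in 23 of 32 pairs (71.9%, Wilson interval 54.6 to 84.4), against 82 of 137 elsewhere (59.9%, 51.5 to 67.7), intervals that overlap. Examples chosen after their values were seen are chrIII:6374017-6375084, 1068 bp wide with a score of 327.84, beside chrIII:6375330-6375601, 272 bp wide with a score of 42.09. Another is chrIII:833945-834221, 277 bp wide with a score of 38.65, beside chrIII:834301-835529, 1229 bp wide with a score of 195.65. The more balanced pair chrIII:11919663-11920254 and chrIII:11920321-11921398 had scores of 234.28 and 245.86 across a gap of 66 bp.

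**Figure D2:**
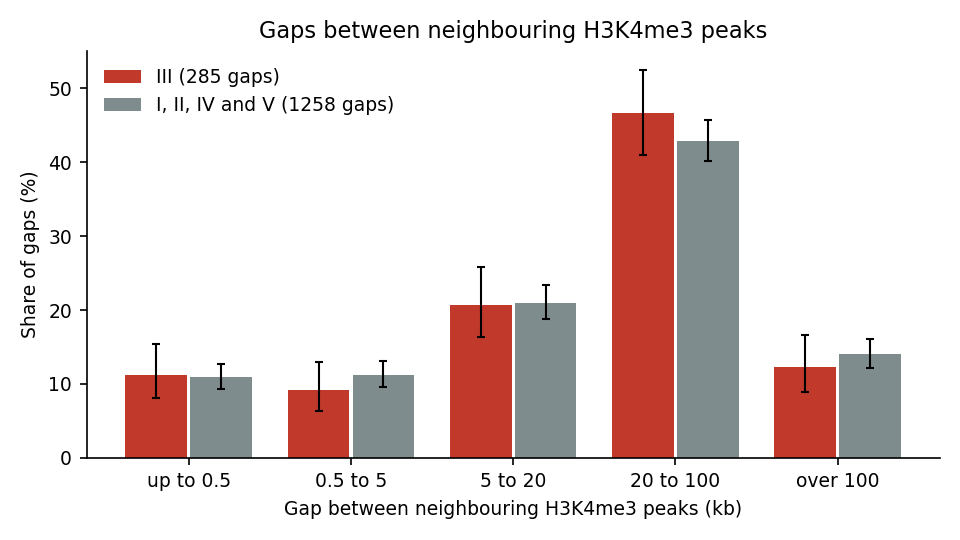
Bars give the share of gaps between neighbouring H3K4me3 peaks (vertical axis, %) in 5 length classes (horizontal axis, kb), for III and then for I, II, IV and V together, with 95% Wilson intervals. The intervals overlap in every class, and gaps of 20 to 100 kb are the commonest class, with 46.7% on III and 42.9% on the others.

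The gaps on III had a median of 27924 bp (interquartile range 9603 to 60511), against 26092 bp (6620 to 63936) on the other autosomes. Gaps of more than 100 kb made up 35 of 285 on III (12.3%, Wilson interval 8.96 to 16.6), against 13.99% (12.2 to 16.02) elsewhere.

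The peaks of III were 224 to 2944 bp wide, with a median of 504 bp (order-statistic interval 464 to 559). The median on the other autosomes was 546.5 bp (521 to 570), and the ratio of medians was 0.922. Singly, II had a median of 464 bp, I 531 bp, V 545 bp and IV 630 bp, so III stood between II and I. The shape of the distribution differed at its narrow end. Peaks under 400 bp made up 99 of 286 on III (34.6%, Wilson interval 29.3 to 40.3), against 26.3% (23.95 to 28.8) on the other autosomes, where II alone had a like share of 34.3%. At the wide end, 49 peaks on III were at least 1000 bp wide (17.1%, Wilson interval 13.2 to 21.9), against 17.3% (15.3 to 19.5) on the other autosomes and 17.3% in the whole list. The share on I, II and V was 13.7%, since IV had 24.6%.

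The right part of III held most of its broad peaks. Of the 49, the right part held 33, the middle part 6 and the left part 10. As a share of the peaks of each part this was 23.9% (Wilson interval 17.6 to 31.7) in the right part, 7.06% (3.28 to 14.6) in the middle and 15.9% (8.86 to 26.8) in the left. The intervals of the right and the left part overlap. Elsewhere the broad share was highest in the right part on I (19.8%) and in the left part on II (11.5%), IV (28.5%) and V (17.1%). The median width on III was 572.5 bp in the right part (order-statistic interval 502 to 641). It was 472 bp in the middle part (390 to 561) and 432 bp in the left part (367 to 506). Chromosome I had the same order, with 582.5 bp in its right part, 543 bp in the middle and 439 bp in the left. On the other autosomes together the order ran the other way, with 497 bp in the right part, 544 bp in the middle and 594 bp in the left, where IV supplied 256 of the 537 peaks of the left part. Ordered by peak count instead, III was not alone. The fullest part also had the highest median width on II (left, 499.5 bp), IV (left, 709.5 bp) and V (middle, 592.5 bp), but not on I. All of the 10 widest peaks of III lay in its right part.

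The widest was chrIII:13462201-13465144 with 2944 bp, which ranked 4 of 1562 by width in the whole list and also had the highest score. The next were chrIII:13642602-13644855 with 2254 bp and a score of 188.91, and chrIII:11542254-11544494 with 2241 bp and a score of 40.45. They were followed by chrIII:13070118-13072290 (2173 bp), chrIII:10746946-10748986 (2041 bp) and chrIII:10813653-10815658 (2006 bp). The last 4 of the 10 were 1701 to 1813 bp wide. Wide peaks were not always strong: of these 10, 7 scored above the list median, and scores ran down to 40.45. The narrowest peaks were chrIII:12190593-12190816 with 224 bp, chrIII:10114923-10115150 with 228 bp and chrIII:5692505-5692733 with 229 bp, with scores of 37.03, 42.88 and 30.59.

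Wider peaks tended to have higher scores, as a description over peaks that share libraries. Spearman's rho between them was 0.50 over the 286 peaks of III, against 0.33 over the 1262 of the other autosomes, where it was 0.45 on I, 0.39 on II, 0.30 on IV and 0.24 on V. Median scores by width on III were 45.94 under 400 bp (99 peaks), 72.6 from 400 to under 600 bp (84 peaks), 113.9 from 600 to under 1000 bp (54 peaks), 124.3 from 1000 to under 1500 bp (33 peaks) and 105.8 from 1500 bp upward (16 peaks). On the other autosomes the same classes had medians of 41.9, 60.6, 63.8, 83.0 and 92.3. The 3 widest classes of III had medians within one another's order-statistic intervals. The class from 600 to under 1000 bp stood furthest from its background, with an order-statistic interval of 70.8 to 137.7 on III and 57.0 to 71.6 on the other autosomes. Summits lay near the centre of the peak: the median summit was 49.7% of the way from the left to the right end, and 204 of 286 summits (71.3%) fell in the middle of 3 equal parts of their peak, against 68.7% on the other autosomes.

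**Figure D3:**
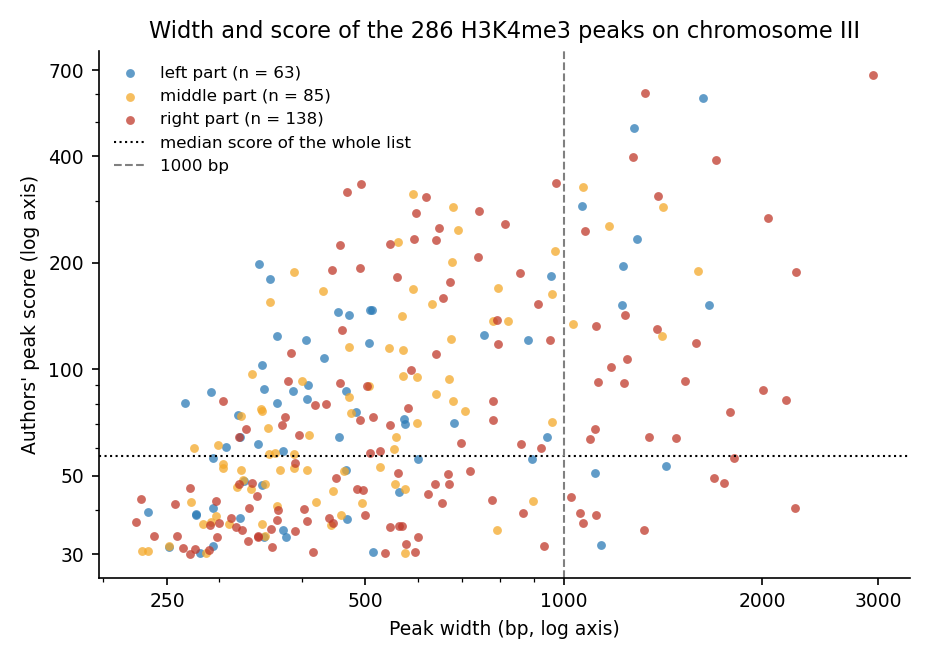
Each point is 1 of the 286 H3K4me3 peaks of III, with its width in bp (horizontal log axis) and the authors' score (vertical log axis), coloured by the left, middle or right part of the span. The dotted line is the median score of the whole list (57.0) and the dashed line 1000 bp. The 10 widest points, up to 2944 bp, belong to the right part, and scores below the dotted line are found at widths from 224 to 2241 bp.

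Scores on III were high for the list. The score is the peak caller's own, its scale is unstated, and it is used to rank peaks within the list. The median on III was 64.52 (order-statistic interval 58.2 to 73.6), against 55.16 (52.1 to 58.2) on the other autosomes, a difference of 9.36. Singly, I had 62.33, II 53.92, V 52.69 and IV 50.16, so III had the highest median of the 5 autosomes, close to I. Scores above the list median belonged to 164 peaks on III (57.3%, Wilson interval 51.6 to 62.9), against 48.3% (45.6 to 51.1) on the other autosomes and 50.0% in the whole list by construction. Scores above the upper quartile of the list, 104.8, belonged to 85 peaks (29.7%, 24.7 to 35.3), against 23.9% (21.6 to 26.3) elsewhere and 25.0% in the whole list, and I had 29.8%. Scores under 40 belonged to 65 peaks on III (22.7%, 18.3 to 27.9) and to 29.95% (27.5 to 32.5) elsewhere.

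The highest scores of III stood at the top of the whole list. The peak at chrIII:13462201-13465144 scored 680.88 and ranked 1 of 1562. The peak at chrIII:12905000-12906327, 1328 bp wide, scored 603.26 and ranked 3. The peak at chrIII:1418181-1419808, 1628 bp wide, scored 586.43 and ranked 5, and chrIII:3867786-3869065, 1280 bp wide, scored 481.17 and ranked 10. Of these 4, 2 lay in the right part and 2 in the left, at 28.0% of the span for the last. Further down, chrIII:9780589-9781862 scored 398.49, chrIII:10740910-10742610 scored 390.9, chrIII:9442626-9443597 scored 335.61 and chrIII:11504789-11505280 scored 334.04. The next 4 were chrIII:6374017-6375084 with 327.84, chrIII:10848919-10849387 with 317.31, chrIII:8955704-8956294 with 313.87 and chrIII:12874093-12875482 with 308.95.

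Of these 12 peaks, 8 lay in the right part, 2 in the middle and 2 in the left, and 8 were at least 1000 bp wide. The narrowest of them was 469 bp wide. Another peak lay within 5000 bp of 3 of the 12, beside 105 of all 286 peaks on III. Among the 50 highest scores of the whole list III had 13, against 15 on I, 4 on II, 15 on IV and 3 on V. Of the whole list III held 18.3%, I 23.4%, II 15.3%, IV 26.2% and V 15.8%. Among the 100 highest III had 24, I 27, II 12, IV 31 and V 6.

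The lowest scores of III, all just above the floor of 30, were 30.06 at chrIII:13307248-13307518, 30.17 at chrIII:12931581-12932115 and 30.19 at chrIII:3383779-3384059. They were followed by 30.27 at chrIII:7771235-7771809, 30.3 at chrIII:8405706-8405992 and 30.4 at chrIII:3175328-3175841. These 6 were 271 to 575 bp wide and lay in all 3 parts.

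Median scores of the 3 parts of III were lowest in the right part, with overlapping intervals. They were 61.66 in the right part (order-statistic interval 47.7 to 72.0), 68.12 in the middle part (52.8 to 84.9) and 72.18 in the left part (58.8 to 86.9). The right part of III is also its fullest, and on every other autosome, too, the fullest part had the lowest median score. That median was 56.26 on I (middle), 47.28 on II (left), 46.81 on IV (left) and 48.24 on V (middle). In 10 equal parts of III, the last 2 had medians of 51.2 and 49.2, against 79.6 and 81.3 in the first 2. The parts between had medians from 52.2 to 84.9. In windows of 1 Mb, the fullest, from 12 to 13 Mb, had a median of 61.5. The next, from 10 to 11 Mb, had 71.69, and that from 11 to 12 Mb had 51.08. The window with the lowest median, from 13 to 14 Mb, had 44.35 with 27 peaks, although it holds the highest single score. The window with the highest median, from 1 to 2 Mb, had 113.2 with 14 peaks. These 2 windows were picked once their values were known.

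The running numbers in the peak names were also spread unevenly along III. They rise from left to right and are not among the measured values, and if they count a longer list from which the 286 peaks were kept, that list was far more uneven. On III they ran from 5358 to 7338, so 286 of 1981 numbers were listed (14.4%, Wilson interval 12.96 to 16.1). This was the highest share among the autosomes, against 10.7% on I, 12.4% on II, 11.3% on IV and 5.12% on V. Within III, 138 of 1526 numbers were listed in the right part (9.04%, 7.71 to 10.6), against 85 of 251 in the middle part (33.9%, 28.3 to 39.9) and 63 of 156 in the left part (40.4%, 33.0 to 48.2). From left to right, the shares by part were 9.27, 17.1 and 8.59% on I and 7.27, 27.9 and 29.5% on II. They were 11.3, 11.1 and 13.5% on IV and 4.75, 7.20 and 3.20% on V. The fullest part thus also had the lowest share on II, but not on I, IV or V. On III the share changed between 60 and 80% of the span. From the 1st to the 6th of 10 equal parts of III it lay between 38.3% and 49.1%, it was 18.6% in the 7th, and it lay between 7.86% and 9.55% in the last 3. Numbers per part of the span were thus 1526 in the right part, against 251 in the middle and 156 in the left. Listed neighbours with consecutive numbers were 28 of 137 in the right part (20.4%), 38 of 84 in the middle (45.2%) and 30 of 62 in the left (48.4%). On the other autosomes together they were 263 of 1258 (20.9%), near the share in the right part of III. The number of candidates, their removal by score and their removal by region cannot be told apart from the numbers.

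**Figure D4:**
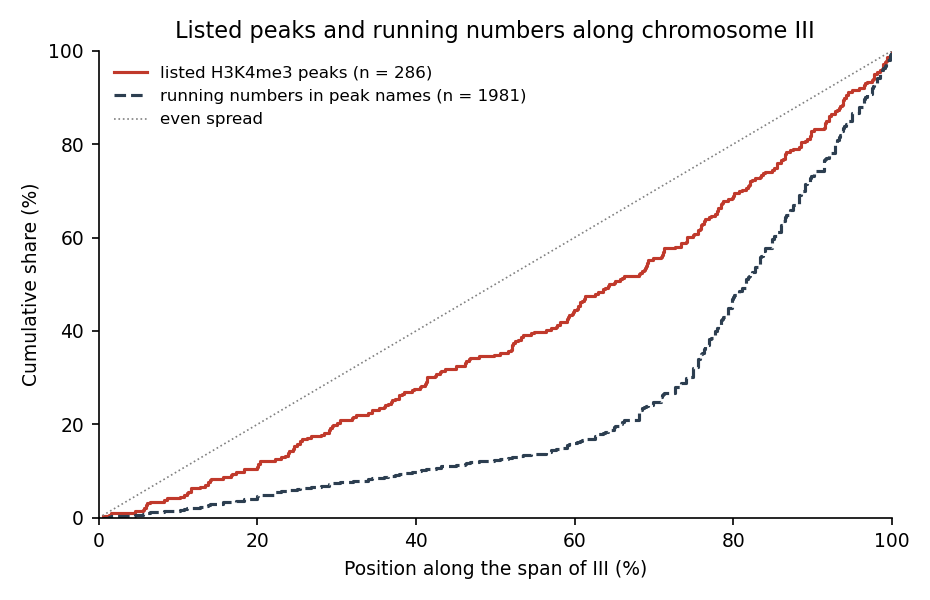
Lines give the cumulative share (vertical axis, %) of the 286 listed H3K4me3 peaks and of the 1981 running numbers in their names along the span of III (horizontal axis, %), with an even spread as the dotted diagonal. Both lines lie below the diagonal over almost all of the span, and the line of the numbers stays under that of the listed peaks until the right end, since the right part holds 138 listed peaks and 1526 numbers.

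ELT-2 peaks were sparse on III, and most lay well apart from the H3K4me3 peaks. The 44 ELT-2 peaks amounted to 3.20 per Mb (exact Poisson interval 2.32 to 4.29), against 6.17 (5.60 to 6.79) on the other autosomes together, and I had 4.52, II 8.20, IV 5.56 and V 6.39. Their positions were uneven as well, with 24 in the right part (54.5%), 6 in the middle (13.6%) and 14 in the left (31.8%). On the other autosomes together the right part held 28.3% of ELT-2 peaks, the middle 30.9% and the left 40.9%. Scores of the 44 ELT-2 peaks on III ran from 31.95 to 199.66 with a median of 44.9.

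The median gap from an ELT-2 peak on III to the nearest H3K4me3 peak, end to end, was 16019 bp (order-statistic interval 10528 to 19986). On the other autosomes it was 22818 bp (18801 to 27788), a ratio of 0.702, and singly it was 15221 bp on IV, 17897 bp on I, 26461 bp on II and 35152 bp on V. The gap on III thus lay near those of IV and I. III had 20.8 H3K4me3 peaks per Mb beside 18.5 on the other autosomes, and the part of that density in the gap was not tested. On I the order-statistic interval of the median gap was 13140 to 24694 bp, which overlaps that of III. The nearest H3K4me3 peak lay to the right of 21 ELT-2 peaks and to the left of 20, and it overlapped 3. Above 5000 and up to 20000 bp lay 19 of the 44 (43.2%, with a Wilson interval of 29.7 to 57.8), against 23.5% (19.7 to 27.8) on the other autosomes, where I had 35.3% (25.0 to 47.2), an interval that overlaps that of III. Over 50000 bp lay 7 (15.9%, 7.93 to 29.4), against 25.7% (21.7 to 30.03), where I had 5.88% and V had 40.2%. The median gap was 12161 bp over the 24 ELT-2 peaks in the right part of III. It was 11124 bp over only 6 in the middle part and 23930 bp over 14 in the left part.

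At short distance there were 3 overlaps and then nothing up to 1000 bp. Overlap by at least 1 bp was found for 3 of the 44 (6.82%, with a Wilson interval of 2.35 to 18.2), against 9.50% (7.06 to 12.7) on the other autosomes and 6.89% of the whole ELT-2 list. Counted from the other side, 3 of 286 H3K4me3 peaks met an ELT-2 peak (1.05%, 0.357 to 3.04), against 3.17% (2.34 to 4.29) on the other autosomes and 2.75% of the whole H3K4me3 list. Without overlap but within 1000 bp lay 0 of 44 on III (0%, with a Wilson interval of 0 to 8.03). On the other autosomes it was 16 of 421 (3.80%, 2.35 to 6.08), an interval that overlaps that of III. Within 5000 bp, overlaps included, lay 10 of 44 on III (22.7%, 12.8 to 37.0), against 22.8% (19.1 to 27.0) elsewhere and 17.0% of the whole ELT-2 list, which includes X. From the H3K4me3 side, 10 of 286 peaks had an ELT-2 peak within 5000 bp (3.50%, 1.91 to 6.32). The share was 8.95% (7.50 to 10.7) elsewhere and 7.87% of the whole list. III had fewer ELT-2 peaks per Mb (3.20 against 6.17), and the part of that in the H3K4me3-side shares was not tested.

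**Figure D5:**
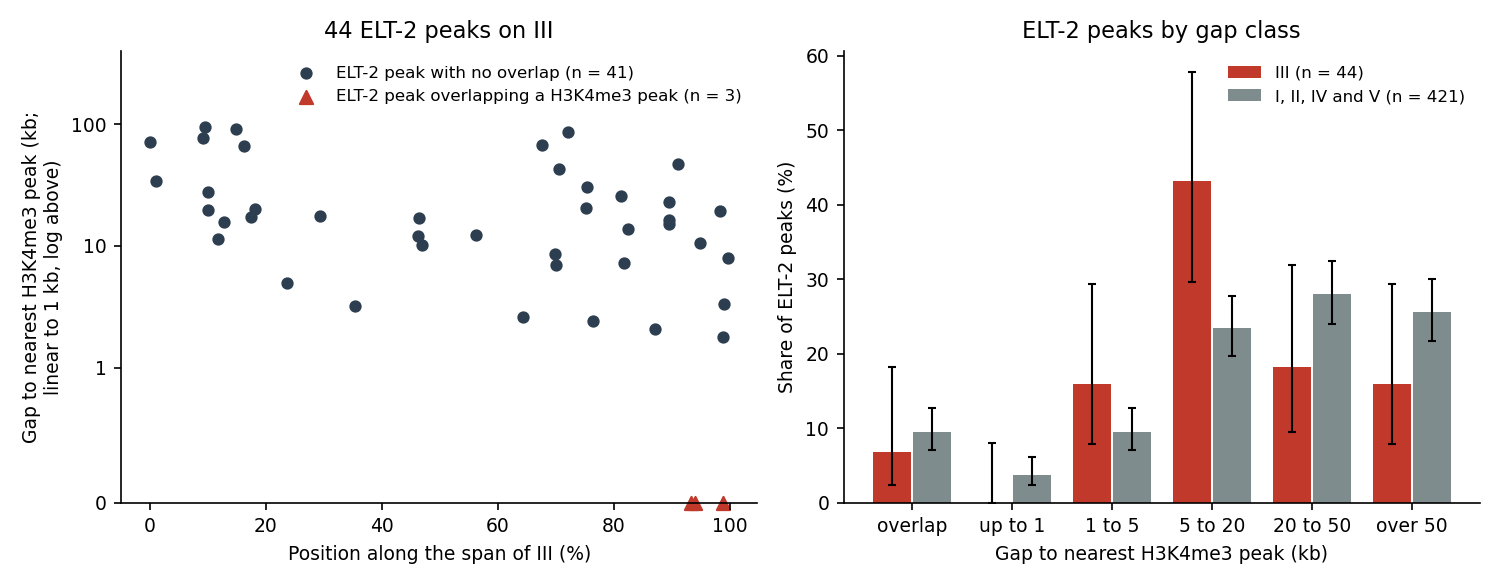
On the left, each point is 1 of the 44 ELT-2 peaks of III at its position along the span (horizontal axis, %), with the gap to the nearest H3K4me3 peak (vertical axis, kb, linear to 1 kb and logarithmic above), and triangles at 0 mark the 3 overlaps, all near the right end. On the right, bars give the share of ELT-2 peaks (vertical axis, %) in 6 gap classes, for III and then for I, II, IV and V together, with 95% Wilson intervals. The class from 5 to 20 kb is the fullest on III, with 43.2% against 23.5%.

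The 3 overlaps lay in the last 1 Mb of the span and were of different kinds. The ELT-2 peak at chrIII:12856030-12856277, 248 bp wide with a score of 41.8, lay wholly inside the H3K4me3 peak at chrIII:12856005-12856280, 276 bp wide with a score of 31. Their summits were 51 bp apart. The ELT-2 peak at chrIII:12947780-12948401, 622 bp wide with a score of 44.58, shared 608 bp with the H3K4me3 peak at chrIII:12947794-12948430, which was 637 bp wide with a score of 47.5, and the summits were 27 bp apart. In these 2 the peaks of both antibodies had nearly the same extent. The H3K4me3 scores of both lay below the list median of 57.0. The third, chrIII:13605581-13606422 with a score of 90.39, shared 386 of its 842 bp with the right end of a broad H3K4me3 peak, chrIII:13604441-13605966, 1526 bp wide with a score of 92.91, and its summit lay outside that peak, 450 bp from the H3K4me3 summit.

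Of the other 7 ELT-2 peaks within 5000 bp, the nearest, chrIII:13607757-13608054 with a score of 35.06, was 1790 bp from the same broad H3K4me3 peak. The peak at chrIII:12003232-12003553 lay 2090 bp, that at chrIII:10533193-10533615 lay 2429 bp and that at chrIII:8868272-8868542 lay 2590 bp from a H3K4me3 peak. The remaining 3 were chrIII:4882027-4882312 at 3202 bp, chrIII:13626576-13626908 at 3311 bp and chrIII:3253728-3254165 at 4909 bp. The H3K4me3 peaks met by these 7 had scores from 33.66 to 154.56. None of the 12 highest H3K4me3 peaks of III was among them. Those 12 lay 12141 bp or more from any ELT-2 peak, with a median of 83261 bp, against a median of 124935 bp over all 286 peaks.

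The strongest ELT-2 peaks of III lay 10 to 34 kb from the nearest listed H3K4me3 peak, with 1 exception. The peak at chrIII:2507962-2508301 scored 199.66, ranked 12 of 624, and was 19986 bp away. That at chrIII:6464031-6464352 scored 159.48 at 10108 bp, that at chrIII:13544506-13544901 scored 144.8 at 19153 bp, and that at chrIII:154222-154555 scored 108.05 at 34143 bp. The fifth, chrIII:2053479-2053779, scored 104.68 at 91298 bp. It is also the second most distant. The most distant was chrIII:1323598-1323898 at 94282 bp, with a score of 67.85, and its nearest H3K4me3 peak was the one at 1418181 that ranks 5 in the whole list. Then came chrIII:9930184-9930715 at 85415 bp, chrIII:1279072-1279472 at 76132 bp and chrIII:15292-15571 at 71210 bp. The H3K4me3 peak at 1418181 was the nearest one for 3 ELT-2 peaks, and so was chrIII:12302015-12302273, with a score of 33.71. Scores did not separate near from far: the 10 ELT-2 peaks within 5000 bp had a median of 46.5 (range 33.2 to 90.39) and the 34 others a median of 43.9 (range 31.95 to 199.66), so the ranges overlap. The 38 H3K4me3 peaks that were nearest to some ELT-2 peak had a median score of 55.9 and a median width of 480.5 bp, against 66.5 and 506 bp for the other 248.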

How the data were processed

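The authors deposited 1 list of peaks and 1 of summits per antibody, each with the peak caller's score, whose scale is unstated. MACS2 2.0.9, Bowtie 1.1.0, bedtools and the build ce10 are named, without settings, in the submitters' processing notes. No source used here says how the 2 H3K4me3 libraries were combined or with which control. In the deposited files every score was above 30, the peaks and summits of an antibody matched, and no summit fell outside its peak. The other deposited columns, start and end, gave widths and gaps.

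Peaks were read with pandas 2.3.3 and described with numpy 2.4.6 and scipy 1.17.1. Gaps ran from end to end. Parts of a span were assigned by summit. Shares have Wilson, densities exact Poisson and medians binomial order-statistic intervals, all at 95%. Gap and grouping routines were tested on simulated data. No read-level or gene-level values were used, and depth per library is therefore unknown.

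The members, measures and alternatives were chosen with earlier results of these data known. Named on III were the 12 highest and 6 lowest scores, the 10 widest and 3 narrowest peaks, sites of 4 or more, the 5 longest empty stretches, the 5 most isolated peaks, the 3 fullest and emptiest windows, ELT-2 peaks within 5000 bp, and the 5 highest and 5 most distant ELT-2 peaks. Other sites were chosen after their values were seen.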

Additional observations from a re-analysis of the deposited data

How the results depend on the processing

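Of 58 alternative values for 10 results, 49 kept the direction of III against the other autosomes and stayed within the counting interval of the value reported (or within 1.5 times, for the count of overlaps), 3 moved further and 6 turned direction. The density ratio was 1.33 among scores above the list median, and 0.974 without V. The ratio of shares in the outer parts was 1.18 without IV and 1.002 without V, from a reported value of 1.07. The ratio of grouped shares was 1.02 without IV, and that of broad shares 1.25 without IV. For ELT-2 peaks near a listed H3K4me3 peak, the ratio of shares was 0.513 for 1000 bp and 1.05 for 10000 bp. It was 1.07 without II and 1.12 without IV, from a reported value of 0.997. The cause was not tested. Median width, median score, the share of high scores and the median ELT-2 gap kept their direction under every alternative run for them. No paired analysis was possible because each antibody has 1 list in which replicates are not separated, and for the same reason no replicate could be left out. The unknown depth limits what a missing peak can show.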
